A study of Mus musculus with 130 samples.

Results

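The 40 livers described here came from male mice of 40 BXD strains that sat at the top or the bottom of a ranking by the liver transcript Cyp2b9. BXD strains are recombinant inbred lines bred from C57BL/6J and DBA/2J. The strains were chosen by 1 measured value: of 56 BXD strains in the panel, 55 were ranked by their Cyp2b9 level in transcripts per 1000000 (TPM), with BXD65/RwwJ left out by the rule. The 20 highest strains form the high group, the 20 lowest the low group, and the 15 between them the middle group. The whole series holds 130 liver libraries.

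The study recorded liver RNA in a wide panel of inbred strains under dietary iron loading, mostly from a single mouse of each strain (2 for 129X1/SvJ). Every panel mouse, high and low alike, was male and ate chow for 4 weeks and then a diet with 2% carbonyl iron (20000 ppm) for 6 weeks, so no BXD mouse without iron loading enters these groups. A separate diet study held 3 male C57BL/6J mice on each of 5 diets. The low strain BXD24/TyJ-Cep290<rd16>/J carries, by its name, the rd16 allele of Cep290. Because each BXD strain is a single mouse, its genotype and the state of that mouse cannot be told apart, and p-values measure the spread between strains. The groups were cut from a measured level, not from a treatment.

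Cyp2b9 is a cytochrome P450 that mouse liver normally makes far more in females than in males. The male pattern of the liver depends on pulses of growth hormone acting through the receptor, JAK2 and STAT5B. Those pulses keep genes such as the major urinary proteins, Hsd3b5 and Elovl3 on and hold female-predominant genes such as Cyp2b9 down. The split was proposed as a marker of a lost growth hormone programme, so lists of female-predominant genes, male-predominant genes, major urinary protein genes and growth hormone signalling genes were examined member by member.

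Cyp2b9 and its neighbour Cyp2b13 lie in one cytochrome P450 cluster on mouse chromosome 7, and their start regions are shown because the transcripts also share sequence. The deposited gene Cyp2b9 (ENSMUSG00000040660) spans positions 26173411 to 26210661 on the plus strand of chromosome 7 (GRCm38, GENCODE M21). The RefSeq windows below (GRCm38.p6, 5′ to 3′) run from 250 bases before the start site to 50 after it, at chr7:26173159-26173458 for Cyp2b9 and chr7:26061245-26061544 for Cyp2b13, both on the plus strand. Capitals mark the longest exact run found in both.
Cyp2b9: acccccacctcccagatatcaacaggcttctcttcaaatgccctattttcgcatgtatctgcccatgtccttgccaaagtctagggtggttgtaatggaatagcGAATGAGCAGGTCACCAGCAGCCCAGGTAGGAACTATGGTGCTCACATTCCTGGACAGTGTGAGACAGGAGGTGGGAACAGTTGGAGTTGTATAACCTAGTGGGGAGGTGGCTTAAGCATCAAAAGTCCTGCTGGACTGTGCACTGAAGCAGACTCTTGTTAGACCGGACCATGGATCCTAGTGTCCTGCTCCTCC
Cyp2b13: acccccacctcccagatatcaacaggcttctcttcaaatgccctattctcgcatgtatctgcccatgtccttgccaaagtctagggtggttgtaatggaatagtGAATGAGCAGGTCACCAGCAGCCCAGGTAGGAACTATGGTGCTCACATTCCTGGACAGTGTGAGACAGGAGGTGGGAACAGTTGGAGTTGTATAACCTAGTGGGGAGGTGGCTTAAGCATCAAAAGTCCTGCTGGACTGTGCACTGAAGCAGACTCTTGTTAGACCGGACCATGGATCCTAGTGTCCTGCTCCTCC
In a global alignment 298 of 300 positions were identical (99.3%). Of the 31-base words in the Cyp2b9 transcript, 19.6% also occurred in Cyp2b13 and 4.82% in Cyp2b10. Reads from such stretches cannot be assigned to 1 of the genes with certainty, so the values of Cyp2b13 are partly tied to the gene that chose the strains.

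The strains spanned a wide range of Cyp2b9. In the high group the level ran from 200.0 to 287.1 TPM with a median of 236.8, and the highest strain was BXD68/RwwJ. In the middle group it ran from 143.6 to 198.9 TPM, and in the low group from 7.133 to 143.2 TPM with a median of 81.43. The low group was the more spread out: BXD14/TyJ had 7.133 TPM and BXD12/TyJ 15.16 TPM, while the next strain, BXD66/RwwJ, had 48.66 TPM. The edges of the groups were not gaps, since the last high strain BXD85/RwwJ (200.0 TPM) sat beside BXD13/TyJ (198.9 TPM), and the first low strain BXD45/RwwJ (143.2 TPM) beside BXD22/TyJ (143.6 TPM). These levels chose the groups and are given without a test.

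The low strains still lay above the C57BL/6J mice on 50 ppm iron, BXD14/TyJ by the least. In the diet study, which was processed into its own tables, C57BL/6J mice on 50 ppm iron had 0.07644, 1.653 and 0.9653 TPM of Cyp2b9, and mice on 2% iron had 115.6, 65.68 and 76.12 TPM. The second mouse on 500 ppm stood apart from the other two of its diet, with 81.7 TPM against 0.5167 and 0.08033 TPM. Single panel mice of the parent strains had 167.0 TPM (C57BL/6J) and 19.29 TPM (DBA/2J). Every BXD strain in the ranking was therefore above all 3 of the 50 ppm mice, a comparison of levels across separately processed tables that carries no test.

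**Figure D1:**
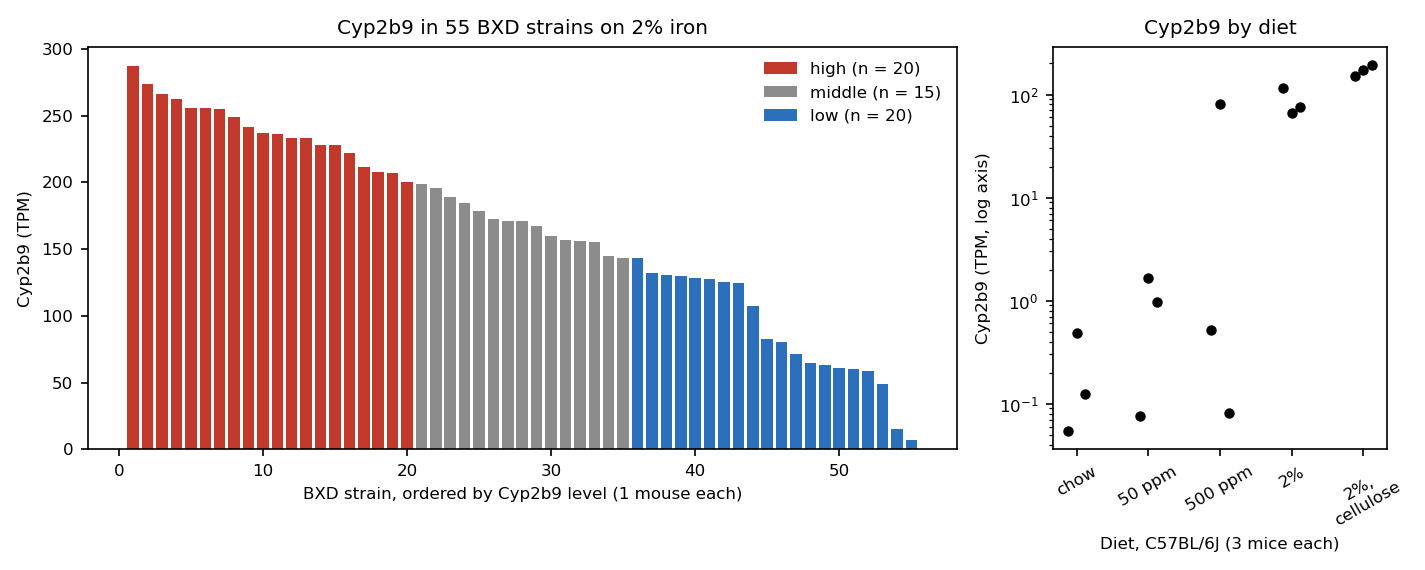
Cyp2b9 in TPM for each of the 55 ranked BXD strains (left, 1 mouse per bar, coloured by group) and for each C57BL/6J mouse of the 5 diets (right, log axis). The bars fall from 287.1 to 7.133 TPM without a gap at the group edges. Near the low end they drop from 48.66 TPM (BXD66/RwwJ) to 15.16 TPM (BXD12/TyJ). The second 500 ppm mouse lies at 81.7 TPM with the 2% iron mice.

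The groups did not differ detectably in depth or in strain set. High strains had 12.8 ± 1.3 M counts and low strains 12.8 ± 2.24 M (SD, n = 20 each, M for 1000000, two-sided permutation test, p = 0.962), within a panel range of 9.41 to 20.6 M. Strains with Ty or TyJ after the BXD number, BXD24/TyJ-Cep290<rd16>/J included (here the Ty set), and strains ending in RwwJ (the Rww set) numbered 10 and 10 in the high group and 11 and 9 in the low group (Fisher's exact test, p = 1). Hepatocyte markers summed to 98980 to 159700 counts per 1000000 (CPM) in high and 87690 to 145700 CPM in low strains, with none of the 10 at 0 throughout a group. Ddx3y, a Y-linked gene, was read in all 55 strains, from 54.85 to 112.4 CPM.

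Of 13235 genes tested besides Cyp2b9, 412 (3.11%) passed an adjusted p of 0.05, of which 219 were lower in the high group (1.65% of those tested) and the rest higher (1.46%). All adjusted p-values of the strain and diet comparisons come from edgeR's quasi-likelihood test with Benjamini-Hochberg adjustment over all genes tested, and log2 changes are high minus low. No gene separated the groups without overlap. The balance of directions depended on the tool, since limma on log2(TPM + 1) called 189 higher and only 54 lower. With 1 strain left out the count ran from 245 (without BXD24/TyJ-Cep290<rd16>/J) to 623 (without BXD70/RwwJ). The median log2 change over all tested genes was -0.008.

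Among the female-predominant genes, 6 of 31 tested members (of 35 listed) were higher in high-Cyp2b9 strains and none lower, beside 1.46% of all tested genes higher. The median log2 change of the 31 was 0.51, and 25 had a positive change. The 6 were A1bg, Cyp2b13, Cyp2a22, Cyp2a4, Acot3 and Abcd2. Cyp2b13 can share reads with Cyp2b9, so its call is partly tied to the gene that chose the strains.

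A1bg, a plasma glycoprotein of the immunoglobulin superfamily, rose most. Its level ran from 0.459 to 49.2 CPM in high strains with a median of 3.54, and from 0.132 to 4.34 CPM in low strains with a median of 0.640. The log2 change was 2.95 ± 0.51 (SE, adjusted p = 0.00117). In 8 high strains the level lay above every low strain and the others overlapped.

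Its start region is shown as the one examined here that carries a STAT5-type motif, the letters TTCNNNGAA searched on both strands (the motif reads the same in either direction). The window lies at chr15:60921221-60921520 on the minus strand (GRCm38.p6), and capitals mark the match, whose first base is 84 bases before the start site.
A1bg: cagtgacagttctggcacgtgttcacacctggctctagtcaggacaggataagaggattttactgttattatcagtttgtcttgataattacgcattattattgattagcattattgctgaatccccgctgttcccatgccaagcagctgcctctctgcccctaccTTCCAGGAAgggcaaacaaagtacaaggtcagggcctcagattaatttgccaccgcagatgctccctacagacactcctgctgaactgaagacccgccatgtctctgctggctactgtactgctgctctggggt
The same letters occur in 8.30% of all 32851 RefSeq windows of this length, in 13 of 145 genes that rose (8.97%), in 14 of 166 that fell (8.43%) and in 859 of 10050 tested genes (8.55%), counting genes with a window in the table. Cyp2b9, Cyp2b13, Cyp2a4, Atp23, Egfr, Hsd3b5, Mpo, Mup7 and Serpina1e had no such letters in their windows.

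The cytochrome genes beside Cyp2b9 moved with it. Cyp2b13 ran from 11.9 to 362.4 CPM in high strains (median 146.9) and from 0.0803 to 146.3 CPM in low strains (median 4.88), a log2 change of 2.79 ± 0.61 (SE, adjusted p = 0.00961). Of the high strains, 10 were above every low strain, and the highest low strain was BXD73/RwwJ. The part of reads shared with Cyp2b9 in the change of Cyp2b13 was not tested. Cyp2a4, a steroid hydroxylase, ran from 39.9 to 1535 CPM in high strains (median 587.9) and from 0.723 to 714.8 CPM in low strains (median 96.7), a log2 change of 1.95 ± 0.50 (adjusted p = 0.0259). BXD14/TyJ, lowest in Cyp2b9, was also lowest in both of these genes. Cyp2a22 rose by 2.38 ± 0.59 (adjusted p = 0.0218), with high strains from 0.0858 to 241.8 CPM and low strains from 0.0693 to 80.1 CPM. Cyp2a4 belongs to a family of close copies, so its counts can be split with them.

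The move was not shared by the whole neighbourhood. Within 5 Mb of the start of Cyp2b9, 5 of 158 tested genes were called (3.16%), against 23 of 870 on the rest of chromosome 7 (2.64%) and 3.15% of 12205 on other chromosomes. Besides the 3 cytochrome genes these were the predicted gene Gm29920 at 2.49 ± 0.53 (adjusted p = 0.00808), which lies between Cyp2b13 and Cyp2b9, and the histone methyltransferase Kmt2b at -0.18 ± 0.05 (adjusted p = 0.0432). Cyp2b10, the CAR-responsive neighbour, had medians of 9.05 CPM in high and 8.27 CPM in low strains, with a log2 change of -0.12 ± 0.39 (adjusted p = 0.905).

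Both other female-predominant genes that rose act in fatty acid metabolism. Abcd2, a peroxisomal transporter of very long chain fatty acids, ran from 81.5 to 183.1 CPM in high strains (median 127.8) and from 60.0 to 118.0 CPM in low strains (median 88.2), a small but even rise of 0.56 ± 0.09 (SE, adjusted p = 0.000897). Of the high strains, 13 were above every low strain. Acot3, a peroxisomal acyl-CoA thioesterase, had a median of 113.6 CPM in high and 34.2 CPM in low strains and rose by 1.63 ± 0.40 (adjusted p = 0.0184).

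The other 25 female-predominant genes did not pass. Sult3a1 (2.42 ± 0.90, adjusted p = 0.131), Cyp3a41a (2.38 ± 0.85, adjusted p = 0.110) and Cyp2c40 (1.83 ± 0.65, adjusted p = 0.109) had large changes with large errors. Cux2, a female-specific repressor, had medians of 29.7 and 29.02 CPM (-0.15 ± 0.44).

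**Figure D2:**
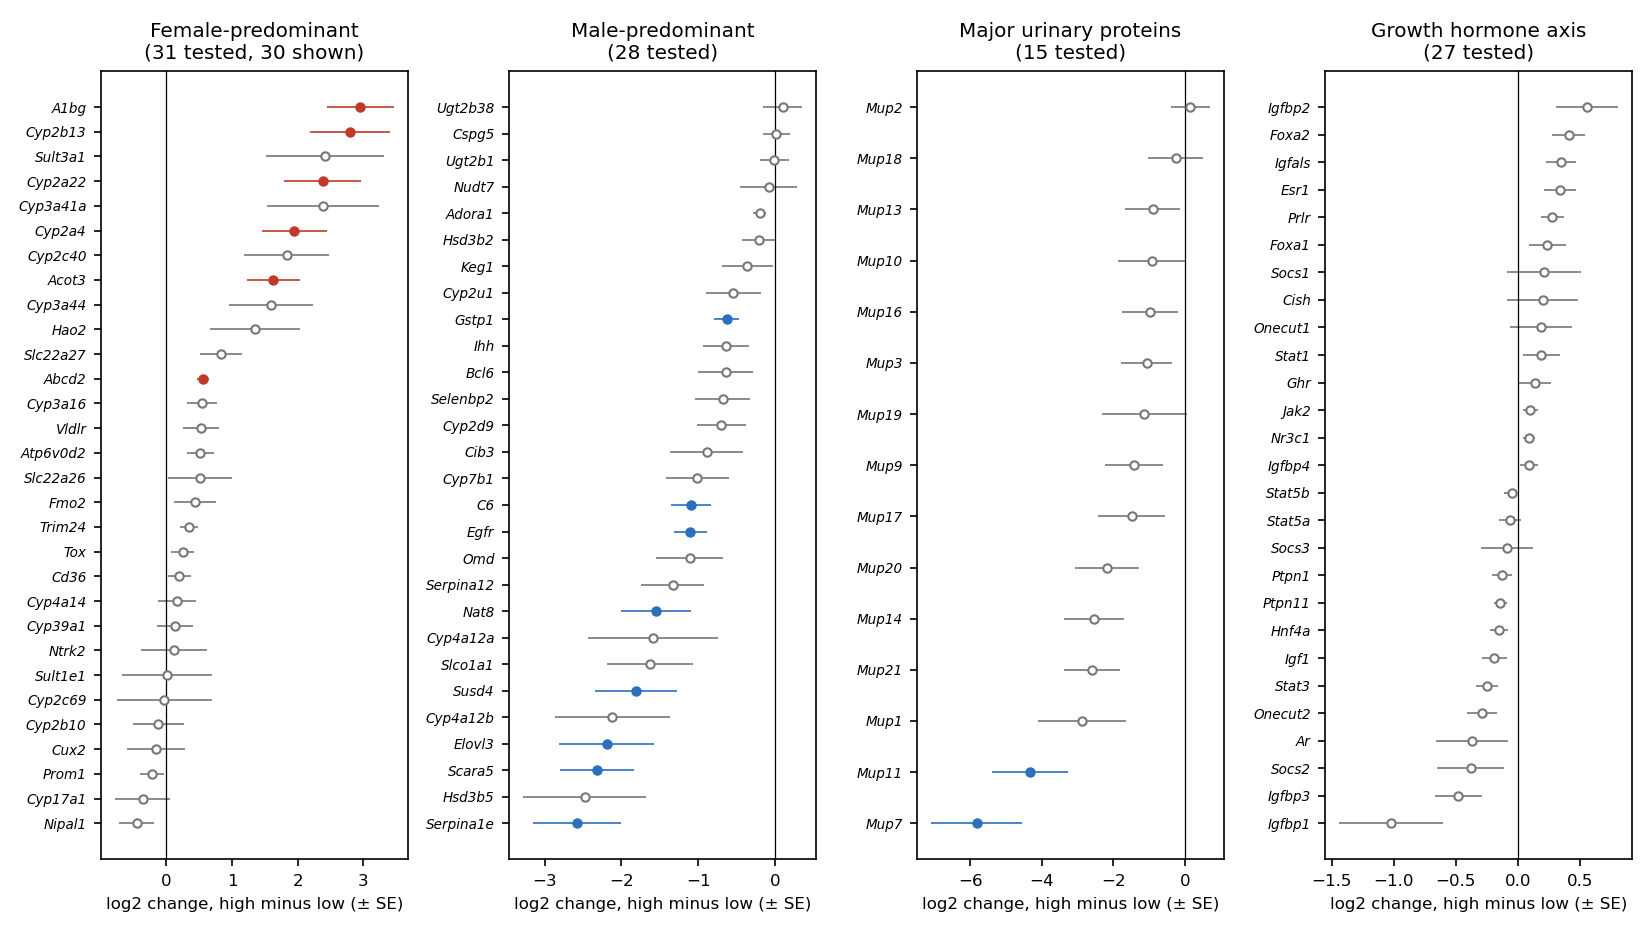
Log2 change (high minus low, ± SE) of the tested members of 4 gene lists, 1 female-predominant member not shown, over 20 against 20 strains. Filled points passed an adjusted p of 0.05 (red higher, blue lower) and open points did not. The 6 red points are all in the female-predominant list, and the growth hormone list has no filled point.

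Male-predominant genes went the other way. Of 28 tested members (of 30 listed), 8 were lower in high-Cyp2b9 strains and none higher, beside 1.65% of all tested genes lower. The median log2 change was -0.95, and 26 had a negative change.

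Serpina1e, a member of the alpha-1-antitrypsin cluster, ran from 16.4 to 406.8 CPM in high strains (median 170.4) and from 18.8 to 9604 CPM in low strains (median 297.2). Its log2 change was -2.58 ± 0.57 (SE, adjusted p = 0.00981). Of the low strains, 6 were above every high strain, led by BXD14/TyJ (9604 CPM), BXD61/RwwJ (3178 CPM) and BXD19/TyJ (2870 CPM), and the others overlapped. Its close copies in the cluster can share reads with it.

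Egfr, the epidermal growth factor receptor, changed more evenly. High strains ran from 103.7 to 408.7 CPM (median 203) and low strains from 127.2 to 1135 CPM (median 370.7), with a log2 change of -1.10 ± 0.21 (adjusted p = 0.00307). Of the low strains, 9 were above every high strain. Scara5, a scavenger receptor that binds ferritin, had a median of 2.20 CPM in high and 13.2 CPM in low strains (-2.32 ± 0.48, adjusted p = 0.00660).

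The fatty acid elongase Elovl3 had medians of 2.69 and 8.57 CPM (-2.19 ± 0.62, adjusted p = 0.0411). The complement component C6 fell by 1.09 on the log2 scale (SE 0.26, adjusted p = 0.0158), and the glutathione transferase Gstp1 by 0.63 (SE 0.16, adjusted p = 0.0241). Susd4, a complement regulator, and Nat8 passed at adjusted p values of 0.0493 and 0.0497, and leaving out single strains kept Susd4 called in 13 of 40 fits, Nat8 in 14 and Elovl3 in 24.

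Classic growth hormone targets were among the 20 male-predominant genes that did not pass. Hsd3b5, a 3-ketosteroid reductase, ran from 0 to 38.7 CPM in high strains (median 0.441) and from 0 to 89.99 CPM in low strains (median 5.06), with a log2 change of -2.48 ± 0.80 (adjusted p = 0.0748). Slco1a1, an organic anion transporter, had medians of 17.4 and 108.8 CPM (-1.63 ± 0.56, adjusted p = 0.0964). Cyp4a12a, a male-specific fatty acid hydroxylase, had medians of 3.12 and 53.1 CPM (-1.59 ± 0.85, adjusted p = 0.303). The groups overlapped widely in each of these genes.

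**Figure D3:**
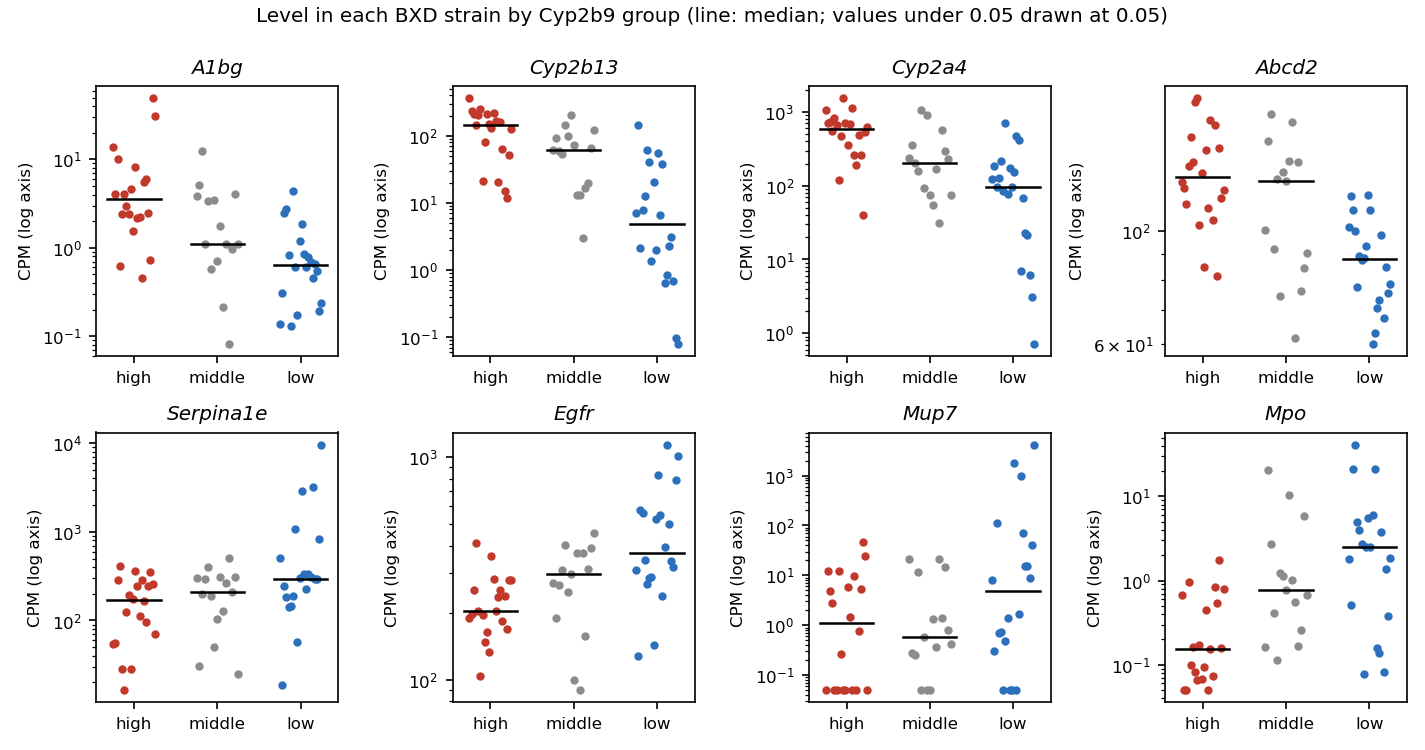
CPM (log axis) of 8 genes in each BXD strain by Cyp2b9 group, with the median as a line. A1bg, Cyp2b13, Cyp2a4 and Abcd2 lie higher in high strains with overlap. The low strains reach 4143 CPM in Mup7, 9604 CPM in Serpina1e and 41.01 CPM in Mpo, above every high strain.

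Major urinary proteins, the male pheromone carriers that a normal male liver makes in great amounts, stood out in a few low strains. Of 15 tested genes (of 23 listed), Mup7 and Mup11 were lower in high strains and none higher, beside 1.65% of all tested genes lower, and 14 had a negative change with a median of -1.42. Mup7 ran from 0 to 47.5 CPM in high strains (median 1.13) and from 0 to 4143 CPM in low strains (median 4.91), a log2 change of -5.82 ± 1.27 (SE, adjusted p = 0.00961). The 5 low strains BXD14/TyJ, BXD19/TyJ, BXD70/RwwJ, BXD8/TyJ and BXD75/RwwJ were above every high strain in Mup7, and the other 15 low strains overlapped with the high group.

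Summed over 22 Mup genes, high strains had 11.02 to 8820 CPM (median 640.8) and low strains 8.86 to 28160 CPM (median 1440). The strain with the smallest sum, BXD74/RwwJ (8.86 CPM), was a low strain. Mup20, or darcin, had 1.56 CPM there and 7134 CPM in BXD14/TyJ. For scale, the 50 ppm C57BL/6J mice had 11180, 4848 and 5110 CPM of Mup20 and the 2% iron mice 326.2, 713.9 and 730.9 CPM. The Mup genes are near-identical copies whose reads can be split among them.

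No member of the growth hormone signalling list passed: 0 of 27 at the adjusted threshold, with a median log2 change of 0.09. The growth hormone receptor Ghr had medians of 349.4 CPM in high and 306.7 CPM in low strains (0.14 ± 0.13, adjusted p = 0.593). Stat5b had 59.5 and 60.2 CPM (-0.05 ± 0.06, adjusted p = 0.737), and Igf1, the circulating growth factor induced by growth hormone, 579.4 and 661.2 CPM (-0.19 ± 0.10, adjusted p = 0.332). Socs2, a feedback target of STAT5, had 25.1 and 31.9 CPM (-0.38 ± 0.27, adjusted p = 0.472). A transcript level says nothing of hormone pulses or of STAT5 activity, which were not measured here. Because target genes on both sides passed only in part and the signalling genes not at all, the groups are called by their Cyp2b9 level here.

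Outside the male-predominant and major urinary protein lists, the steepest falls included genes of granulocytes and red cell precursors. Of 6 tested granulocyte markers (of 10 listed), Mpo, Ngp, S100a8 and S100a9 were lower in high strains, and of 6 tested erythroid markers (of 9 listed), Slc4a1 and Alas2, beside 1.65% of all tested genes lower. All 12 tested had a negative change. In bulk liver, fewer cells of a type and less RNA per cell cannot be told apart.

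Mpo, the peroxidase of neutrophil granules, ran from 0 to 1.75 CPM in high strains (median 0.155) and from 0.0768 to 41.01 CPM in low strains (median 2.50). The log2 change was -4.06 ± 0.65 (SE, adjusted p = 0.000435). Of the low strains, 13 were above every high strain, led by BXD42/TyJ, BXD8/TyJ and BXD74/RwwJ. Ngp, a granule protein, had medians of 0.301 and 4.21 CPM (-3.83 ± 0.61, adjusted p = 0.000435), and S100a8, a calgranulin subunit, 1.09 and 5.12 CPM (-2.73 ± 0.48, adjusted p = 0.00117).

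Slc4a1, the band 3 anion exchanger of red cells, had medians of 0.594 and 6.02 CPM (-3.35 ± 0.62, adjusted p = 0.00233). The globin genes were not called, as with Hbb-bs, with medians of 51.7 and 195.1 CPM (-1.60 ± 0.57, adjusted p = 0.105). Summed granulocyte markers ran from 4.03 to 25.1 CPM in high and 4.86 to 164.6 CPM in low strains. Summed erythroid markers ran from 5.44 to 757.8 CPM in high and 19.3 to 1724 CPM in low strains. No marker of either list was at 0 throughout a group.

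Other cell type lists were near the background. Hepatocyte (0 of 10), stellate (0 of 12), endothelial (0 of 10) and lymphocyte (0 of 5) markers had no call by edgeR, and of 17 macrophage markers only Marco, a scavenger receptor of Kupffer cells, was lower (-1.35 ± 0.36, adjusted p = 0.0306).

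The 10 largest rises held the 5 female-predominant genes A1bg, Cyp2b13, Cyp2a22, Cyp2a4 and Acot3, together with Cyp3a59, Hist4h4, Aldh3a2, Cxcl9 and Cyp2c37. Aldh3a2, a fatty aldehyde dehydrogenase, had medians of 243.4 CPM in high and 125.7 CPM in low strains (1.07 ± 0.19, adjusted p = 0.00175). The 10 largest falls included Mup7, Mup11, Mpo, Chil3, Ngp, Slc4a1, Ltf, Ffar4 and S100a8. Chil3 (a chitinase-like protein) and Ltf (lactoferrin) are made by myeloid cells, and Ffar4 is a receptor for fatty acids.

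The gene with the smallest p was Atp23 on chromosome 10, a mitochondrial metalloprotease, named here after its value was seen. It ran from 8.64 to 14.6 CPM in high strains (median 10.6) and from 4.23 to 9.62 CPM in low strains (median 5.89), a log2 change of 0.87 ± 0.09 (SE, adjusted p = 6.34e-08). Of 20 low strains, 19 were below every high strain, the exception being BXD73/RwwJ, which was highest among the low strains. Middle strains lay between, from 6.58 to 10.9 CPM.

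Low strains differed among themselves in Mpo and Mup7. The highest high strain in both genes was BXD1/TyJ (Mpo 1.751 CPM, Mup7 47.45 CPM), so 1 mouse sets both marks used here. BXD45/RwwJ (1.802 CPM) and BXD14/TyJ (1.846 CPM) passed the Mpo mark only narrowly. Above all high strains were 10 low strains in Mpo alone, 2 in Mup7 alone (BXD70/RwwJ and BXD75/RwwJ), 3 in both (BXD14/TyJ, BXD19/TyJ and BXD8/TyJ) and 5 in neither. Among the 15 middle strains, 4 passed the same mark for Mpo and none for Mup7. In the 10 strains with Mpo alone, Mup7 had a median of 0.598 CPM and Hsd3b5 of 0.328 CPM, beside 1.13 and 0.441 CPM in the high group. These strains were not alike, as Mup7 ran up to 15.39 CPM and Hsd3b5 up to 19.77 CPM, both in BXD61/RwwJ. Among the strains in neither class, BXD12/TyJ had a summed Mup level of 6453 CPM. In BXD70/RwwJ and BXD75/RwwJ, Mpo was 0.160 and 0.139 CPM. These subsets were seen in the data and are described without a test.

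**Figure D4:**
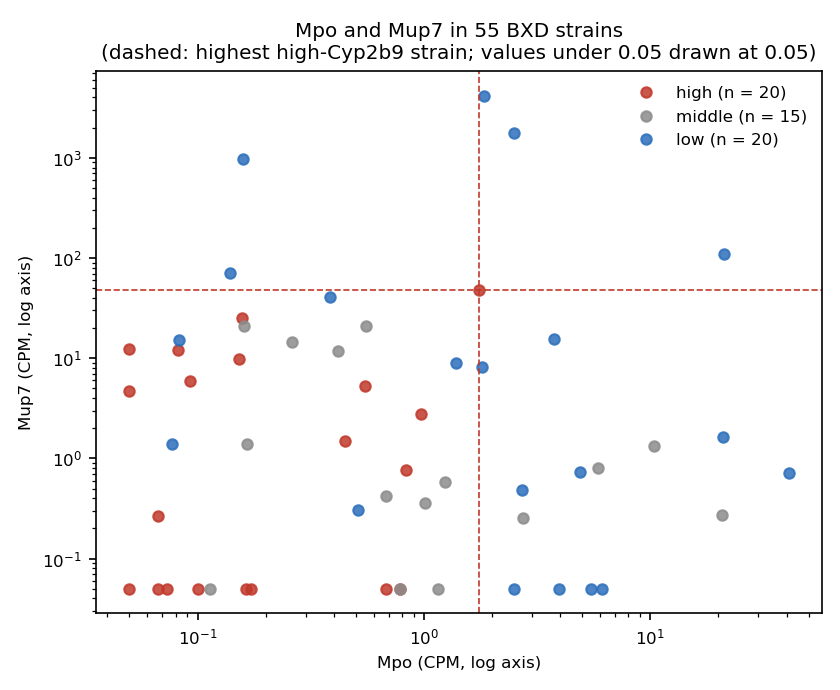
Mpo against Mup7 in CPM (log axes) for the 55 ranked strains, coloured by group, with dashed lines at the highest high-Cyp2b9 strain. Low strains lie mostly beyond one line or the other: 10 in Mpo alone, 2 in Mup7 alone, 3 in both and 5 in neither.

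Few calls were left without the strains high in Mpo. Without those 13 low strains, 7 low strains were left and 12 genes (0.0875%) were called, 7 higher and 5 lower: Atp23, Cyp2a4, Trim24, Abcd2, Cntn1, 2410004P03Rik and Fam84b higher, and Carmil1, Mrap2, Nars2, Serpina4-ps1 and Scp2 lower. Cyp2a4 then differed by 3.51 (adjusted p = 0.0378) and Abcd2 by 0.67 (adjusted p = 0.0428), while A1bg at 3.78 (adjusted p = 0.113), Cyp2b13 at 2.71 (adjusted p = 0.446) and Egfr at -1.11 (adjusted p = 0.105) kept their size but not the call. With all 40 strains and log2 Mpo as a covariate, 11 genes were called, among them Atp23 (0.86, adjusted p = 9.26e-05), A1bg (3.69, adjusted p = 0.00842) and Abcd2 (0.66, adjusted p = 0.00842). Without the 5 strains high in Mup7, in contrast, 960 genes were called. These settings were added after the data were seen, and the first leaves fewer low strains, so the part of the smaller group in the lost calls was not tested. Mpo and Mup7 are themselves called genes of the split, so these settings are not independent of the calls.

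Most iron genes did not pass. Of 29 tested members (of 30 listed), 12 had a positive and 17 a negative change (median -0.03), and 4 were lower in high strains and none higher, beside 1.65% of all tested genes lower: the divalent metal transporter Slc11a2 (-0.80 ± 0.14, adjusted p = 0.00149), the transferrin receptor Tfrc (-1.06 ± 0.28, adjusted p = 0.0287), heme oxygenase Hmox1 (-0.79 ± 0.21, adjusted p = 0.0302) and the zinc and iron transporter Slc39a14 (-0.39 ± 0.11, adjusted p = 0.0322). Hamp, which encodes the iron hormone hepcidin, had medians of 864.3 and 814.8 CPM (0.07 ± 0.10, adjusted p = 0.751). Without the 13 strains high in Mpo, Tfrc stood at 0.06 (adjusted p = 0.986), Hmox1 at 0.00 (adjusted p = 0.999), Slc11a2 at -0.41 (adjusted p = 0.550) and Slc39a14 at -0.25 (adjusted p = 0.584). Slc11a2, Tfrc and Hmox1 are all also transcribed in red cell precursors or macrophages, and the part of those cells in their change was not tested.

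Some lipid synthesis genes were higher in high strains, beside 1.46% of all tested genes higher. All 23 tested cholesterol synthesis genes had a positive change (median 0.45), and 4 passed, among them the squalene synthase Fdft1 (0.50 ± 0.13, adjusted p = 0.0241) and Acat2 (0.54 ± 0.15, adjusted p = 0.0396). Of 12 lipogenesis genes, 3 passed: acetyl-CoA carboxylase Acaca (0.52 ± 0.14, adjusted p = 0.0348), the desaturase Scd1 (0.69 ± 0.19, adjusted p = 0.0390) and the elongase Elovl6 (0.74 ± 0.22, adjusted p = 0.0498). Scd1 had medians of 11950 CPM in high and 7050 CPM in low strains, with wide overlap. Among 13 bile acid genes, the uptake transporters Slco1a4 (0.92 ± 0.22, adjusted p = 0.0149) and Slc10a1 (0.28 ± 0.08, adjusted p = 0.0470) were higher.

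The remaining lists had few or no calls. Among 20 acute phase genes only Cebpd was lower, 19 having a negative change (median -0.29). Zmat3 and Bax of 12 p53 targets and Mthfd2 and Ddit4 of 14 stress response genes were lower, beside 1.65% of all tested genes. So were Mki67 of 11 proliferation genes and Cd24a of 5 cholangiocyte genes. Of the p53 targets, 10 had a negative change (median -0.32). Lect2 of 14 pericentral and Cyp2c37 of 18 CAR and PXR genes were higher, beside 1.46% of all tested genes. The fasting (PPARA), glucocorticoid, NRF2, circadian and periportal lists had none by edgeR.

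The same genes were followed in strains that the ranking did not use. Across 20 AXB/BXA strains, recombinant inbred lines from A/J and C57BL/6J with Cyp2b9 from 11.86 to 356.7 TPM, each gene was fitted on log2(TPM + 1) of Cyp2b9. AXB19/PgnJ (327.8 TPM), AXB19a/PgnJ (302.8 TPM) and AXB19b/PgnJ (292.6 TPM) are related by name. The fit counted them as separate strains, so the 20 are not all independent genotypes. Of 14461 genes, 13 (0.0899%) passed, 3 with a positive slope (0.0207%) and 10 with a negative one (0.0692%). Of these 13, 9 (69.2%, or 2.19% of the BXD calls) were also called in the BXD split, all in the same direction, among them Cyp2a4 (slope 1.69 per doubling, adjusted p = 0.0100), Serpina1e (-1.49, adjusted p = 0.000202), Scara5 (-1.18, adjusted p = 0.000202), C6 (-0.70, adjusted p = 0.00194), Egfr (-0.61, adjusted p = 0.0141) and Gstp1 (-0.34, adjusted p = 0.00989).

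In these strains 6 of 28 male-predominant genes had a negative slope that passed, 1 of 34 female-predominant genes a positive one, and 0 of 19 Mup genes either. Mpo had a slope of 1.36 (adjusted p = 0.856), opposite in sign to its change in the BXD split but far from the threshold. Without the 2 strains farthest from the median in Cyp2b9, AXB10/PgnJ (11.86 TPM) and BXA12/PgnJ (98.38 TPM), edgeR called 0 genes (623 at an unadjusted p under 0.05), so the calls rest on those 2 mice.

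Across 31 samples of other inbred strains, with Cyp2b9 from 0.118 to 385.9 TPM, 75 of 14322 genes (0.524%) passed, 29 with a positive slope (0.202%) and 46 with a negative one (0.321%). Of these, 11 were also BXD calls (14.7%, and 2.68% of the BXD calls), all in the same direction. They included Cyp2b13 (1.39, adjusted p = 1.90e-05), Gm29920 (1.72, adjusted p = 5.66e-07), Cyp2a22 (0.65, adjusted p = 0.00418) and Atp23 (0.20, adjusted p = 0.000264). Here too Cyp2b13 can share reads with Cyp2b9, the predictor. No male-predominant gene of 28 and no Mup gene of 19 passed, Cyp2a4 had a slope of 0.05 (adjusted p = 0.899), and none of 9 granulocyte markers passed (Mpo -0.10, adjusted p = 0.819). The 2 strain sets were not tested against the BXD split, and the fits differ in their number of strains and in the scale of the predictor. Neither set is unrelated to the BXD strains. The AXB/BXA lines share the parent C57BL/6J, and the inbred set includes both BXD parents, C57BL/6J and DBA/2J. It also holds strains related by name, such as BALB/cJ and BALB/cByJ.

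Iron loading itself gives a view of the same genes within 1 strain. In C57BL/6J, 2126 of 13559 genes (15.7%) differed between 2% iron and 50 ppm, 1154 higher (8.51%) and 972 lower (7.17%), with 3 mice per diet. Cyp2b9 was higher on 2% iron by 6.56 on the log2 scale (adjusted p = 0.0145). Iron moved 20 of 21 tested Mup genes and 18 of 29 male-predominant genes down, 1 male-predominant gene (Adora1) up and 5 of 31 female-predominant genes up. Mup7 fell by 8.29, from 9914, 900.2 and 720.0 CPM to 10.9, 10.6 and 15.4 CPM (adjusted p = 0.000489), and Cyp2a4 rose by 6.66 (adjusted p = 0.0279).

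Of 404 BXD calls tested in both, 96 passed in the diet comparison too (23.8% of these, 4.52% of the diet calls), 28 in the same direction and 68 in the opposite one. Male-predominant and Mup genes were on the same side: Mup7, Mup11, Serpina1e, C6, Gstp1, Elovl3 and Susd4 were lower both in high-Cyp2b9 strains and on iron, and Cyp2a4 was higher in both. Acaca rose by 1.30 on iron (adjusted p = 0.0435) and was higher in high-Cyp2b9 strains too, and Alas2 fell by 1.51 (adjusted p = 0.00170) and was lower in them. Other genes that iron raised were on the opposite side: Slc4a1 rose by 4.15 on iron (adjusted p = 0.0261), Ffar4 by 4.72 (adjusted p = 0.00892), Hmox1 by 2.36 (adjusted p = 0.00842) and Marco by 3.23 (adjusted p = 0.00469), and all 4 were lower in high-Cyp2b9 strains. Aldh3a2 fell by 1.37 on iron (adjusted p = 0.00224) and was higher in high-Cyp2b9 strains. Mpo was not called on iron (3.16, adjusted p = 0.276), with 1.16, 0.353 and 0.341 CPM in the 2% mice.

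**Figure D5:**
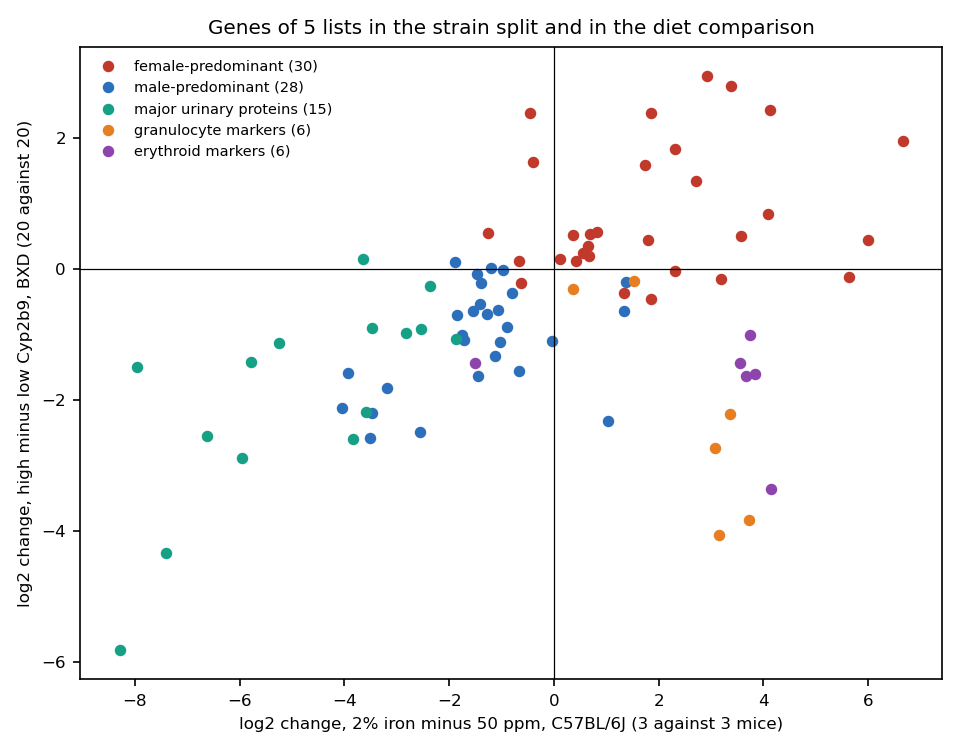
Log2 change of list genes on 2% iron against 50 ppm in C57BL/6J (x axis, 3 against 3 mice) and between high and low Cyp2b9 BXD strains (y axis, 20 against 20), without errors. Major urinary protein and male-predominant genes lie mostly at the lower left, and granulocyte and most erythroid markers at the lower right.

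The 2 sets of BXD strains gave unequal counts. The Ty strains alone (10 against 11) gave 165 calls and the Rww strains alone (10 against 9) 12. In a test of the difference itself, edgeR called 0 of 13895 genes (1599 at an unadjusted p under 0.05, smallest adjusted p 0.0599). No single gene was thus shown to differ between the sets, which does not show that the sets are alike.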

How the data were processed

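Liver mRNA of 130 male mice was sequenced from stranded libraries, per the labels' protocols. The authors deposited expected counts per gene, made with kallisto 0.46 and the mm10 build per the submitters' processing notes, and TPM for the same libraries. The tables' other settings are not given in the sources used here. The design assumed whole counts, so expected counts were rounded.

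The 40 strains, the lists and the tests were chosen with earlier results of these data known. Genes were tested with edgeR 4.0.16 (quasi-likelihood, TMM factors, filterByExpr) in R 4.3.3, two-sided, and the script was tested on simulated data. Alternatives used DESeq2 1.42.0 and limma 3.58.1. CPM used TMM factors. Library totals (9.41 to 20.6 M in the 40 split strains, M for 1000000) set the precision of low values. Symbols matched 35612 of 35711 identifiers. The diet contrast came from 1 fit of 5 groups, and the 2 mice of 129X1/SvJ were summed.

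Named genes were the members of the 4 sex and growth hormone lists, the 10 steepest rises and 10 steepest falls that were called and averaged 1 CPM or more over the 40 libraries (predicted genes and pseudogenes passed over), called genes within 5 Mb of Cyp2b9, and up to 4 called members plus a defining member of each other list. A few genes that this rule names are not reported here. The promoter alignment scored 1 for a match, -1 for a mismatch, -3 to open and -1 to extend a gap.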

Additional observations from a re-analysis of the deposited data

How the results depend on the processing

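The share of tested genes called in the BXD split (3.11%) became 4.25% with DESeq2 (306 higher, 410 lower), 1.84% with limma on log2(TPM + 1) (189 higher, 54 lower), 1.75% with limma on log2(TPM + 0.1) (184 higher, 47 lower), 1.26% in Ty and 0.0912% in Rww strains alone, 0.486% with 10 against 10 strains, 1.31% with 27 against 27 (88 higher, 85 lower), 0.992% with Cyp2b9 as a continuous covariate over 55 strains (78 higher, 71 lower), 0.0875% without the Mpo-high and 7.2% without the Mup7-high low strains, and 0.0771% with Mpo as a covariate. The cause of these differences was not tested. Leaving out 1 strain gave 1.86% to 4.71%. The count of 412 moved by over 1.5 times without BXD24/TyJ-Cep290<rd16>/J (245), BXD42/TyJ (257), BXD74/RwwJ (260), BXD27/TyJ (269) and BXD70/RwwJ (623).

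Female-predominant calls (6) became 2 with at least 10 counts in every library, where fewer members are tested, 2 in Ty and 1 in Rww strains, 3 without the Mpo-high strains and 2 with Mpo as a covariate, and ranged from 6 to 7 with 1 strain left out. Male-predominant calls (8) became 4 with at least 10 counts, 2 and 2 with limma, 1 in Ty and 2 in Rww strains, 14 with the continuous covariate, 0 without the Mpo-high and 5 without the Mup7-high strains, and 1 with Mpo as a covariate, and ranged from 5 to 10 with 1 strain left out. Granulocyte and erythroid calls (6) became 10 without a filter, with DESeq2 and with library total as a covariate, 1 with at least 10 counts, with 10 against 10, with 27 against 27 and with the continuous covariate, and 0 in Rww strains, without the Mpo-high strains and with Mpo as a covariate, and stayed at 6 with 1 strain left out. Mpo belongs to the granulocyte and erythroid count and itself set the Mpo settings, so the lost calls there were partly fixed in advance. Tfrc at 0.06 and Slc4a1 at 0.36 without the Mpo-high strains, and Mup7 at 0.02 without the Mup7-high strains (which that gene itself chose), turned their sign. Atp23 stayed called in all 20 alternatives and in all 40 fits with 1 strain left out.

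The AXB/BXA count fell from 13 to 0 without the 2 farthest strains. The inbred count of 75 became 34 without the 2 farthest and 123 without strains under 1 TPM. The diet count of 2126 ranged from 1003 to 2332 with 1 mouse left out. No paired analysis was possible for the split, because the high and low strains are different single mice that the labels do not match to each other. Low values such as Mpo at under 1 CPM rest on few reads per library, and differences among high strains were not tested there.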

Other observations

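A few values outside the 40 strains are given for orientation. In the middle group, BXD48/RwwJ had 61.7 CPM of Scd1, where the middle median was 7923 CPM and the lowest of the 40 split strains 2357 CPM. BXD65/RwwJ, left out of the ranking, had 218.7 TPM of Cyp2b9, within the range of the high group. The second C57BL/6J mouse on 500 ppm iron had 147.3 CPM of Cyp2a4 and 53.3 CPM of Cyp2b13, against 0.346 and 1.52 CPM of Cyp2a4 and 0 and 0.144 CPM of Cyp2b13 in the other mice of its diet, while its Mup7 level of 1761 CPM lay near theirs at 3009 and 4554 CPM. Without that mouse the diet comparison gave 2332 calls.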
